A study of Mus musculus with 22 samples.

Results

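The surfactant and alveolar type 2 genes are 9 of the 54373 genes counted in sorted lung epithelial cells (ECs). They were listed by name, with earlier results of these data known, and comprise the surfactant proteins Sftpa1, Sftpb, Sftpc and Sftpd, the lamellar body genes Abca3 and Lamp3, the phosphate transporter Slc34a2, the protease Napsa and the lipid enzyme Lpcat1. Each symbol matched 1 Ensembl gene in both count tables, and all 9 passed the filter on low counts in every fit.

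Alveolar type 2 cells make pulmonary surfactant, the film of lipid and protein that lowers surface tension in the alveoli. The hydrophobic proteins SP-B and SP-C are cut out of larger precursors, packed with phospholipid into lamellar bodies and secreted, while the collectins SP-A and SP-D bind microbes, allergens and lipid in the alveolar lining. The same cells are the progenitors of the flat alveolar type 1 cells that cover most of the alveolar surface, and house dust mite (HDM) extract reaches both when it is inhaled.

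RNA was sequenced from 22 libraries of live CD45- EpCAM+ single cells from lungs of WT, AhR-/- and CYP1B1-/- mice on a C57BL/6 background. The knockouts are germline, so every cell of the donor mouse carries them, and the mice were of both sexes and over 7 weeks old. At steady state there were 4 WT, 3 AhR-/- and 3 CYP1B1-/- libraries from untreated mice. After HDM there were 4 of each genotype, from mice given 1 sensitizing instillation into the airways, then from 8 days later a challenge on 4 consecutive days, with cells collected 72 h after the last dose. The comparisons ask how loss of AhR, a ligand-activated transcription factor, or of CYP1B1, an enzyme that it induces and that breaks down its ligands, alters ECs in each state.

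Total counts ranged from 9654825 to 17878442 per library, but in the HDM libraries the predicted gene Gm10800 alone took 0.0082 to 71.9% of them. Levels are therefore given as CPM, counts scaled to a common library size, after TMM scaling over the 16639 protein-coding genes that passed the filter in all 22 libraries together. On that scale 3 counts equal 0.107 to 1.36 CPM, below the lowest value of any of the 9 genes.

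In the promoters available for 6 of the 9 genes, a short search was made for letters read by factors that bear on these cells. The motifs were CTCAAG, of the type bound by NKX2-1, TGTTTNC, of the type bound by FOXA factors, and GCGTG, the core of the AhR response element, each on either strand. They occurred in 13.3%, 17.8% and 28.2% of all 32851 promoter windows of the same 250 bases. The windows of Lpcat1 and of Slc34a2, which rose after HDM in each genotype, are not printed. The 4 windows printed are those of Sftpa1, Sftpb and Lamp3, which rose after HDM in at least 2 genotypes, and of Abca3, which did not. They are from RefSeq (GRCm38.p6) and run up to the first annotated exon, reading 5′ to 3′ on the strand of the gene, with the matched letters in capitals. They lie at chr14:41131538-41131781 on the plus strand, chr6:72304360-72304609 on the plus strand, chr16:19706376-19706615 on the minus strand and chr17:24351773-24351949 on the plus strand.
Sftpa1: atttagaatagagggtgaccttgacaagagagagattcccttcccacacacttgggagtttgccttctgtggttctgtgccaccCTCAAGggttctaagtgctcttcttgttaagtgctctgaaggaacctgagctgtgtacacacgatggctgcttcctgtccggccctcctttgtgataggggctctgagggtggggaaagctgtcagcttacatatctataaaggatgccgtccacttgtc
Sftpb: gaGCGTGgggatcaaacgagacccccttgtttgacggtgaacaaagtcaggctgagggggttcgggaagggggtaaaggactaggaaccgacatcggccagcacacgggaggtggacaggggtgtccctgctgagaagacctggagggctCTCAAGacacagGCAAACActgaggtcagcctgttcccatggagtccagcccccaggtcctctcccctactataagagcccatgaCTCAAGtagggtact
Lamp3: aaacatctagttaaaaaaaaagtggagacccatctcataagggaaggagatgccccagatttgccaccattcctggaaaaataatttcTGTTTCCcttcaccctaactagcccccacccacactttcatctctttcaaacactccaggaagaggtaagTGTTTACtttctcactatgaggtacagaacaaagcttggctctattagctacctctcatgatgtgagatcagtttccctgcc
Abca3: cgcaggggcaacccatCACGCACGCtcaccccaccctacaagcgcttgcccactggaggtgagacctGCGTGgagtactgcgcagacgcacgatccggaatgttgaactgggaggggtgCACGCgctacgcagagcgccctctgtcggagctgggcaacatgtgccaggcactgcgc

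The full windows of Sftpa1 and Sftpb held 1 and 2 CTCAAG matches, and that of Sftpb also held 1 TGTTTNC and 1 GCGTG. The Lamp3 window held 2 TGTTTNC matches and no other. The window of Abca3 held 4 GCGTG matches, of which 2 share a base, and neither of the other motifs. Those of Slc34a2 and Lpcat1 held 1 GCGTG each and neither of the other motifs, so the motifs did not follow which genes rose. The GC content was 42.4% for Lamp3, 50% for Sftpa1, 58.4% for Sftpb, 60.8% for Lpcat1, 67.6% for Abca3 and 69.6% for Slc34a2, against a median of 52.4% over all windows. A match of letters does not show that a factor binds there.

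The labels and the sort were checked before the genes were compared. Ahr was not lower in the libraries labelled AhR-/-, at 15.5 to 20.1 CPM at steady state and 12.8 to 25.5 CPM after HDM within overall ranges of 6.38 to 20.1 and 6.63 to 25.5 CPM. Cyp1b1 was highest in the libraries labelled CYP1B1-/-, at 3.62 to 5.89 and 4.98 to 13.5 CPM. Counts over a whole gene include exons outside a deleted part and so do not check a germline deletion. AhR-/- and CYP1B1-/- therefore stand here for libraries labelled AhR-/- and CYP1B1-/-. Epcam was detected in every library, and Ptprc, which encodes CD45, was at 2.02 to 52.6 CPM at steady state and 14.8 to 669 CPM after HDM.

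Replicates 3 and 4 of the AhR-/- HDM group stood apart from the other HDM libraries. They held 67.3 and 69.6 CPM of the Y-linked gene Ddx3y, against at most 0.0859 CPM in the other 10 HDM libraries and 19.7 to 99.8 CPM in the 10 steady state libraries. Their summed level of 12 alveolar type 1 markers was 22484 and 27816 CPM, against a steady state range of 26162 to 40536 CPM. That sum was 13921 and 5115 CPM in AhR-/- HDM replicates 1 and 2 and 693 to 6653 CPM in the WT and CYP1B1-/- HDM libraries. Epcam was at 68.2 and 85.7 CPM in AhR-/- HDM replicates 3 and 4, lower than in every other HDM library. The counts and medians of the 9 genes that use this group are given with and without these 2 libraries. In WT and CYP1B1-/- mice, and in AhR-/- mice once those 2 libraries are left out, HDM and the sex read from Ddx3y cannot be told apart. In all 3 genotypes HDM and the count table in which each state was deposited cannot be told apart.

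At steady state, Sftpc was the most abundant of the 9 genes in every genotype and Sftpa1 the next. Per kilobase of exon, the mean level of Sftpc was 2198 RPKM in WT, 1717 RPKM in AhR-/- and 1149 RPKM in CYP1B1-/-. Sftpa1 followed at 292, 210.2 and 153 RPKM, and its range lay below that of Sftpc and above that of every other member in each genotype. The order of the remaining 7 was not resolved for most neighbours, whose ranges overlapped. In WT, Slc34a2, Sftpb and Sftpd had means of 43.8, 40.2 and 39.0 RPKM, while Lamp3, Lpcat1, Napsa and Abca3 had means of 17.98, 14.01, 13.5 and 9.72 RPKM. Sftpc and Sftpa1 together made up 44.3 to 86.5% of the counts of the 9 genes at steady state and 69.3 to 95.5% after HDM.

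After HDM, Sftpc and Sftpa1 kept these places in every genotype and Sftpd came next, at means of 362, 476 and 551 RPKM in WT, AhR-/- and CYP1B1-/-. In WT after HDM, Slc34a2 followed at 172 RPKM, Napsa at 143 RPKM, Sftpb at 102 RPKM and Lamp3 at 94.4 RPKM. Ranges of neighbours in this upper part of the order overlapped. Lpcat1 and Abca3 were the lowest in every HDM group, and in each the range of Abca3 lay below that of Lpcat1. Abca3 was at 7.05, 4.79 and 8.41 RPKM in WT, AhR-/- and CYP1B1-/-.

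**Figure D1:**
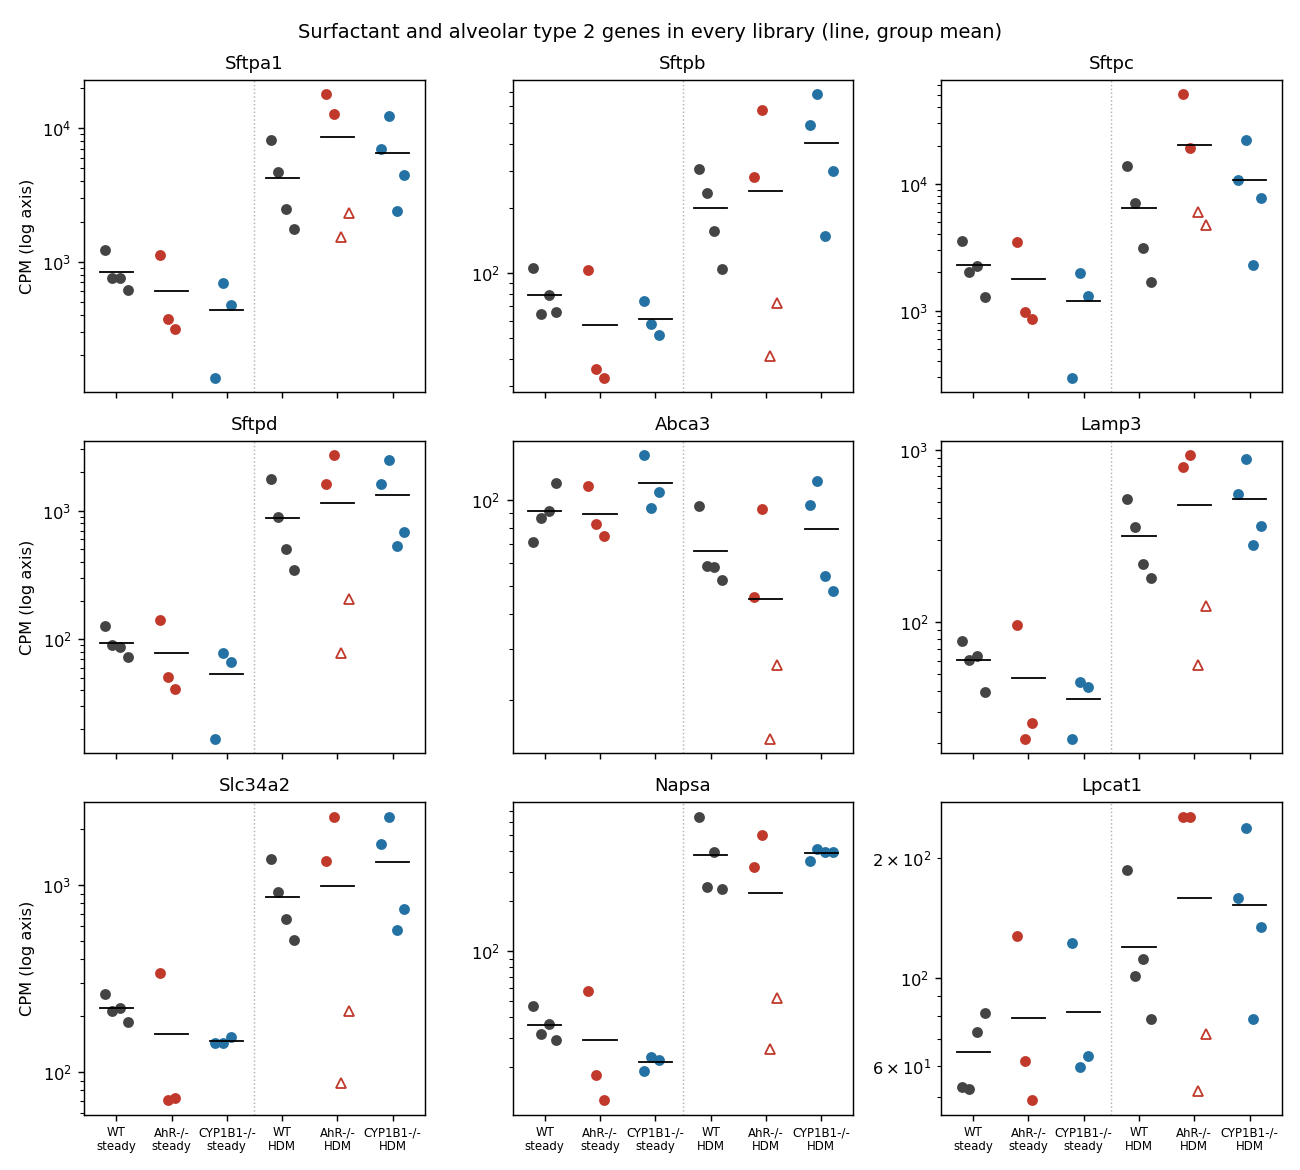
Level of each of the 9 genes in every library, in CPM on a log axis, by genotype and state, with 1 point per library, triangles for AhR-/- HDM replicates 3 and 4 and a line at the group mean. Sftpc spanned 295 to 3533 CPM at steady state and 1671 to 51111 CPM after HDM, whereas Abca3 spanned 71.5 to 143 CPM and 14.6 to 117 CPM.

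The 9 genes took a larger share of the coding counts after HDM. Of the protein-coding counts without the 6 predicted genes that dominate some libraries, they made up 0.381 to 1.15% in WT, 0.242 to 1.03% in AhR-/- and 0.189 to 0.491% in CYP1B1-/- at steady state. After HDM the shares were 1.26 to 4.57% in WT, 1.47 to 12.5% in AhR-/- and 1.30 to 9.29% in CYP1B1-/-. No HDM library of any genotype fell below the highest steady state library, which was WT replicate 1. Of all counts, where the dominant predicted genes stay in, the shares overlapped, at 0.117 to 0.879% at steady state and 0.163 to 11.5% after HDM. The highest share, in AhR-/- HDM replicate 1, had a 95% Wilson interval of 12.516 to 12.548%, so counting error was far smaller than the spread between libraries. In bulk RNA, more alveolar type 2 cells and more RNA of these genes per cell, or fewer and less, cannot be told apart.

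The collectins rose after HDM in all 3 genotypes. Sftpd, which encodes SP-D, was at 127, 89.5, 87.4 and 72.3 CPM in the 4 WT libraries at steady state and at 1751, 896, 505 and 348 CPM after HDM, with no overlap and a ratio of means of 9.30. In CYP1B1-/- it was at 16.7, 77.6 and 66.4 CPM at steady state and at 1622, 2486, 532 and 685 CPM after HDM, again without overlap. In AhR-/- it was at 142, 51.2 and 41.2 CPM and then at 1625, 2697, 77.8 and 207 CPM, so that replicate 3 lay inside the steady state range. The log2 fold changes of HDM over steady state for Sftpd were 3.22 (SE 0.85, adjusted p = 0.00474) in WT, 3.89 (SE 0.99, adjusted p = 0.00924) in AhR-/- and 4.63 (SE 1.03, adjusted p = 0.0013) in CYP1B1-/- by the quasi-likelihood test of edgeR, with p adjusted by Benjamini-Hochberg over 16639 genes.

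Sftpa1, which encodes SP-A and neighbours Sftpd on chromosome 14, was at 1221, 753, 753 and 610.0 CPM in WT at steady state and at 8181, 4666, 2495 and 1747 CPM after HDM. In AhR-/- it was at 1118, 370.2 and 315 CPM and then at 18076, 12710.0, 1519 and 2329 CPM. In CYP1B1-/- it was at 135, 698 and 477 CPM and then at 6984, 12297, 2379 and 4451 CPM. Every HDM library lay above every steady state library of its own genotype, and above those of the other genotypes too. By edgeR with Benjamini-Hochberg adjustment, the log2 fold change of Sftpa1 was 2.36 (SE 0.75, adjusted p = 0.0153) in WT, 3.85 (SE 0.90, adjusted p = 0.00523) in AhR-/- and 3.90 (SE 0.90, adjusted p = 0.00162) in CYP1B1-/-.

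Sftpc, the classical marker gene of alveolar type 2 cells, spread widely among libraries of a group. In WT it was at 3533, 2028, 2255 and 1273 CPM at steady state and at 13799, 7002, 3127 and 1671 CPM after HDM, and replicates 3 and 4 of the HDM group lay inside the steady state range. In the AhR-/- libraries it was at 3499.6, 971 and 855 CPM and then at 51111, 18995, 6001 and 4760.3 CPM, without overlap, replicates 3 and 4 included. In CYP1B1-/- it was at 295, 1963 and 1306 CPM and then at 10640.0, 22158, 2296 and 7654 CPM, also without overlap. Its log2 fold change passed the test in AhR-/- at 3.51 (SE 1.00, adjusted p = 0.0159) and in CYP1B1-/- at 3.17 (SE 0.98, adjusted p = 0.0144), both by edgeR with Benjamini-Hochberg adjustment. In WT it did not, at 1.49 (SE 0.82, adjusted p = 0.159) by the same test.

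Sftpb, whose product SP-B is needed for lamellar bodies to form, was at 64.8 to 105 CPM in WT at steady state and 105 to 306 CPM after HDM, the lowest HDM library lying just under the highest steady state library. It ranged from 32.6 to 103 CPM and from 41.4 to 574 CPM in AhR-/-, and from 51.7 to 73.9 CPM and from 148 to 682 CPM in CYP1B1-/-. Only in CYP1B1-/- were the 2 states of Sftpb apart in every library. The log2 fold change of Sftpb was 1.35 (SE 0.61, adjusted p = 0.0844) in WT, which missed the threshold, 2.09 (SE 0.69, adjusted p = 0.0349) in AhR-/- and 2.72 (SE 0.71, adjusted p = 0.00451) in CYP1B1-/- by edgeR with Benjamini-Hochberg adjustment.

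The lamellar body genes did not move alike. Lamp3, a membrane protein of lamellar bodies that also marks mature dendritic cells, was at 78.04, 60.1, 63.6 and 39.5 CPM in WT at steady state and at 514, 356, 216 and 180.2 CPM after HDM. Among AhR-/- libraries it was at 96.5, 21.03 and 25.96 CPM and then at 795, 928, 56.9 and 125 CPM, replicate 3 lying inside the steady state range. In CYP1B1-/- it was at 21.1, 45.1 and 42.01 CPM and then at 552, 884, 279 and 361 CPM, and as in WT the states did not overlap. Lamp3 rose by a log2 fold change of 2.39 (SE 0.68, adjusted p = 0.00766) in WT, 3.32 (SE 0.80, adjusted p = 0.00642) in AhR-/- and 3.85 (SE 0.82, adjusted p = 0.000833) in CYP1B1-/- by edgeR with Benjamini-Hochberg adjustment.

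Abca3, the transporter that loads phospholipid into lamellar bodies, was the only member whose mean was lower after HDM in all 3 genotypes. It was at 71.5, 86.6, 91.5 and 115 CPM in WT at steady state and at 94.98, 58.6, 58.4 and 52.4 CPM after HDM. In AhR-/- it was at 111, 82.6 and 74.5 CPM and then at 45.7, 92.8, 14.6 and 26.5 CPM, and in CYP1B1-/- at 143, 94.00 and 107 CPM and then at 96.1, 117, 54.3 and 48.1 CPM. The 2 states overlapped in each genotype. The log2 fold change of Abca3 was -0.46 (SE 0.40, adjusted p = 0.389) in WT, -0.98 (SE 0.43, adjusted p = 0.107) in AhR-/- and -0.54 (SE 0.43, adjusted p = 0.379) in CYP1B1-/-, none of which passed edgeR's test with Benjamini-Hochberg adjustment. D330041H03Rik, annotated on the opposite strand, overlaps 9.75% of the exon bases of Abca3. It was at 0 to 4.31 CPM of coding counts throughout.

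Napsa encodes napsin A, an aspartic protease that processes the precursors of SP-B and SP-C. It was at 46.6, 31.7, 36.4 and 29.3 CPM in WT at steady state and at 649, 245, 394 and 239 CPM after HDM, a ratio of means of 10.6. In CYP1B1-/- it was at 18.9, 23.3 and 22.2 CPM and then at 350.1, 412, 396 and 395 CPM, the most even of all HDM values. In the AhR-/- libraries it was at 57.8, 17.9 and 12.7 CPM and then at 321, 503, 25.9 and 52.5 CPM, and replicates 3 and 4 lay inside the steady state range. Napsa rose by a log2 fold change of 3.41 (SE 0.67, adjusted p = 0.000322) in WT, 2.94 (SE 0.73, adjusted p = 0.00781) in AhR-/- and 4.18 (SE 0.78, adjusted p = 0.000262) in CYP1B1-/- by edgeR with Benjamini-Hochberg adjustment. Gm15396 overlaps 18.9% of the Napsa exon bases on the opposite strand, and it ranged from 0.805 to 3.48 CPM of coding counts at steady state. After HDM it was at 10.7 to 18.1 CPM in WT and 14.1 to 18.7 CPM in CYP1B1-/-, and at 0.847 to 22.3 CPM in AhR-/-, where replicates 3 and 4 lay inside the steady state range. The strand setting of the counting is not given in the sources used here, so reads of the 2 genes cannot be told apart in that stretch.

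Slc34a2, the sodium-phosphate cotransporter of the alveolar type 2 apical membrane, was at 261, 212, 219 and 186 CPM in WT at steady state and at 1371, 914, 655 and 509 CPM after HDM. Among AhR-/- libraries it was at 338, 70.5 and 72.3 CPM and then at 1342, 2324, 87.4 and 211 CPM, with replicates 3 and 4 inside the steady state range. In CYP1B1-/- it was at 143, 143 and 153 CPM and then at 1652, 2308, 574 and 743 CPM, and in WT and CYP1B1-/- the states did not overlap. It rose in WT at 1.97 (SE 0.72, adjusted p = 0.0339), in AhR-/- at 2.63 (SE 0.83, adjusted p = 0.0275) and in CYP1B1-/- at 3.17 (SE 0.85, adjusted p = 0.00549) on the log2 scale by edgeR with Benjamini-Hochberg adjustment. Lpcat1, the acyltransferase that makes the saturated phosphatidylcholine of surfactant, ranged from 49.03 to 127 CPM over the steady state libraries and from 51.9 to 255 CPM over the HDM libraries. Its log2 fold changes of 0.88, 1.00 and 0.89 in WT, AhR-/- and CYP1B1-/- did not pass edgeR's test (adjusted p = 0.141, 0.165 and 0.197, Benjamini-Hochberg).

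**Figure D2:**
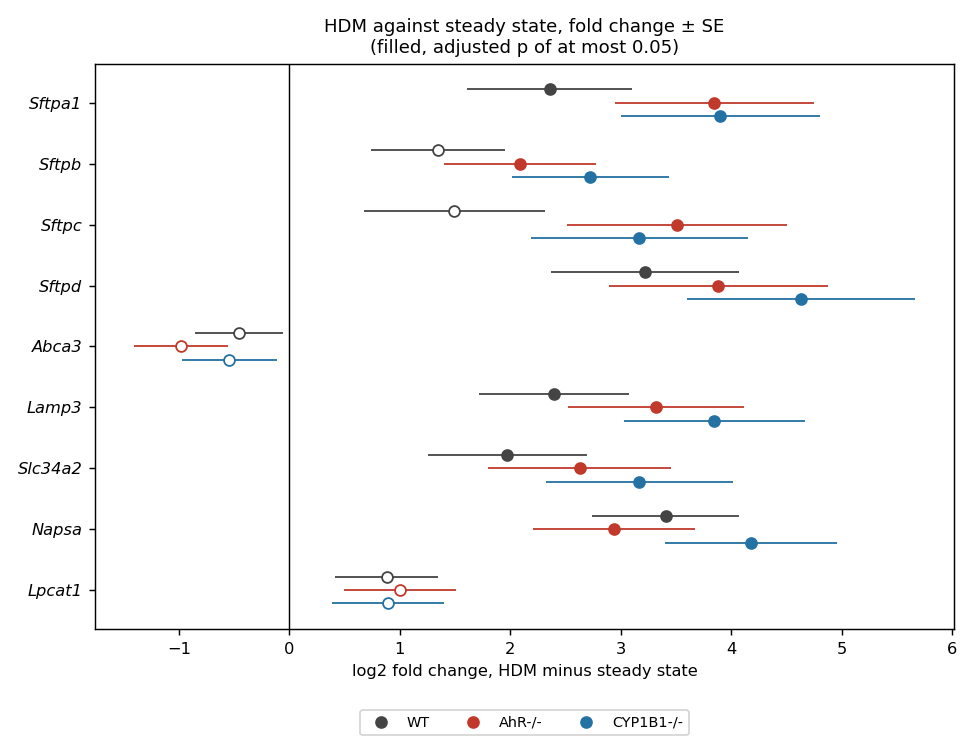
Log2 fold change of HDM over steady state for each of the 9 genes in WT, AhR-/- and CYP1B1-/-, with bars of 1 SE from edgeR and filled points where the adjusted p is at most 0.05. Sftpd, Sftpa1, Lamp3, Napsa and Slc34a2 were past the threshold in all 3 genotypes, and Abca3 alone was below 0 in each.

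Counted over the list, 5 of the 9 genes rose after HDM in WT, where 38.4% of all 16639 tested genes passed the threshold and 19% rose. In AhR-/- 7 of 9 rose, against 20.6% of all genes passing and 10.6% rising. In CYP1B1-/- 7 of 9 rose, against 33.4% passing and 15.5% rising. No member fell past the threshold in any genotype, although without AhR-/- HDM replicate 2 Abca3 did in AhR-/-, at -1.53 (SE 0.38, adjusted p = 0.00919 by edgeR with Benjamini-Hochberg adjustment). The median log2 fold change of the 9 genes was 1.97, 2.94 and 3.17 in WT, AhR-/- and CYP1B1-/-, and that of all tested genes was -0.11, -0.05 and -0.02. The median of the 9 was 1.16 in AhR-/- with limma voom. Every HDM library lay above every steady state library for 5 members in WT (17.7% of all genes), 2 in AhR-/- (12.7%) and 7 in CYP1B1-/- (14.2%).

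Single libraries and a covariate changed some of these counts. In WT 3 members passed without HDM replicate 1, and in AhR-/- 2 passed without steady state replicate 3 or without replicate 4, and 4 without HDM replicate 1. Without the 2 AhR-/- HDM libraries that held Y-linked reads, 8 members rose in AhR-/-, Lpcat1 among them, with a median log2 fold change of 3.87. The single values then ran from -0.29 (SE 0.41) for Abca3 and 1.75 (SE 0.47) for Lpcat1 to 4.86 (SE 0.81) for Sftpd. With the mean log2 CPM of 20 hematopoietic markers as a covariate, 0 of 9 passed in each genotype, with medians of 1.19, 2.01 and 2.51. Most of these markers themselves rose with HDM in each genotype. That fit therefore cannot tell their level from the state, and nothing is read from the loss of calls.

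Markers of other cells moved with the state as well. The 20 hematopoietic markers summed to 115 to 450 CPM at steady state, and after HDM to 2893 to 9132 CPM in WT, 364 to 1862 CPM in AhR-/- and 482 to 8770 CPM in CYP1B1-/-. All 20 rose in WT and in CYP1B1-/- and 18 rose in AhR-/-. The 12 alveolar type 1 markers summed to 26162 to 40536 CPM at steady state, and after HDM to 1006 to 6653 CPM in WT, 5115 to 27816 CPM in AhR-/- and 693 to 6051 CPM in CYP1B1-/-. Of them 10 fell in WT, 1 in AhR-/- (median -1.14) and 11 in CYP1B1-/-. Without AhR-/- HDM replicates 3 and 4, 3 fell in AhR-/- (median -1.68), and no marker of either list was at 0 throughout a group. The part of the alveolar type 1 fall in the CPM of the surfactant genes was not tested.

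**Figure D3:**
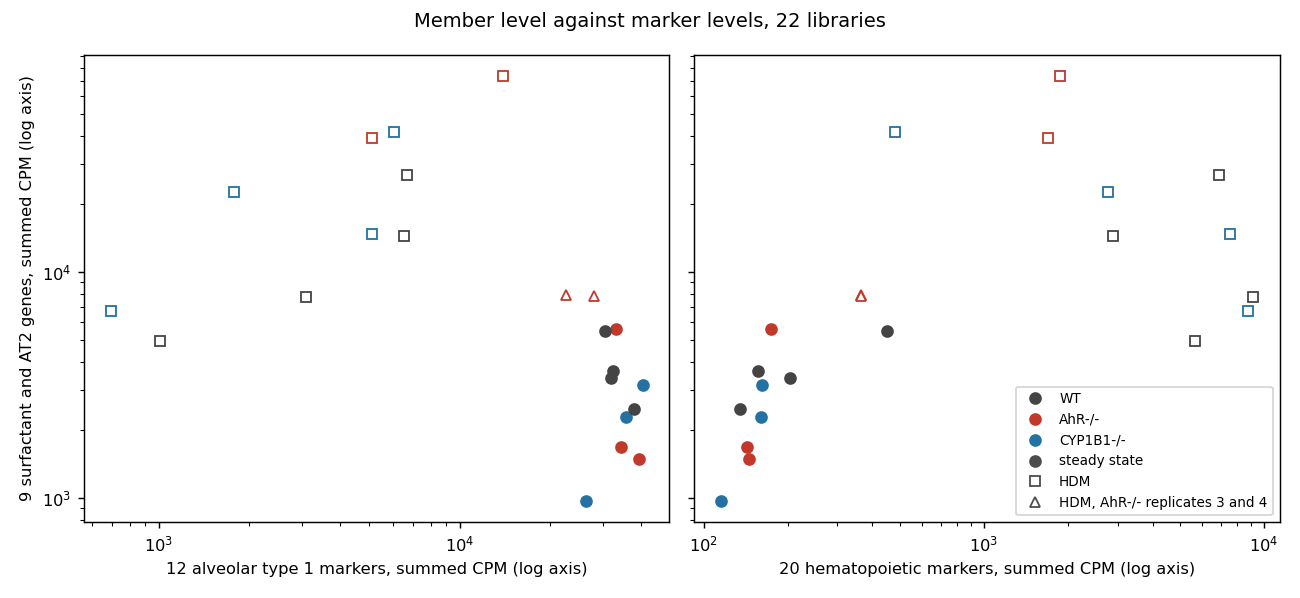
Summed CPM of the 9 surfactant and alveolar type 2 genes (vertical) against that of 12 alveolar type 1 markers (left) and of 20 hematopoietic markers (right), 1 point per library on log axes, with triangles for AhR-/- HDM replicates 3 and 4. The 9 genes summed to 969 to 5593 CPM at steady state and to 4931 to 73852 CPM after HDM.

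More of the other alveolar type 2 genes rose than fell, whereas more regulators of surfactant genes fell than rose in WT and CYP1B1-/-. Of 16 further alveolar type 2 genes, 8 rose and 2 fell after HDM in WT, with a median log2 fold change of 1.60. In AhR-/- 9 rose and 1 fell (median 2.31), and in CYP1B1-/- 11 rose and 2 fell (median 2.17). Of 12 transcription factors, receptors and other regulators of surfactant genes, 1 rose and 7 fell in WT (median -1.47) and 2 rose and 6 fell in CYP1B1-/- (median -1.03), while 1 rose and none fell in AhR-/-. Of all genes, 19% rose and 19.4% fell in WT, 15.5% and 17.9% in CYP1B1-/-, and 10.6% and 10.1% in AhR-/-. Nkx2-1, the factor that turns on the surfactant protein genes, fell by 3.51 in WT (adjusted p = 0.00128) and by 3.06 in CYP1B1-/- (adjusted p = 0.00473) on the log2 scale by edgeR with Benjamini-Hochberg adjustment. In AhR-/- its log2 fold change was -1.39 (SE 0.77, adjusted p = 0.208) by the same test. Gata6, another lung epithelial factor, fell by 2.29 in WT and by 1.87 in CYP1B1-/- and was at -0.17 in AhR-/-. Without AhR-/- HDM replicates 3 and 4, 23.6% of all genes passed in AhR-/-. Of the further alveolar type 2 genes 13 then rose and 1 fell. Of the regulators 2 rose and 0 fell, with Nkx2-1 at -0.95 (SE 0.97) and Gata6 at -0.45 (SE 0.52).

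Of 20 genes of surfactant lipid synthesis, processing and lamellar body traffic, 6 rose and 5 fell in WT (median 0.46), 2 rose and 2 fell in AhR-/-, and 6 rose and 6 fell in CYP1B1-/- (median 0.53). In AhR-/- that is close to the 20.6% of all genes that passed, and in WT and CYP1B1-/- the shares of all genes were 38.4% and 33.4%. Without AhR-/- HDM replicates 3 and 4, 7 rose and 1 fell in AhR-/-, where 23.6% of all genes passed. Chpt1, which completes phosphatidylcholine synthesis, fell by 1.92 in WT and by 2.02 in CYP1B1-/- on the log2 scale and was at -0.08 in AhR-/-. Atp8a1, a phospholipid flippase, fell by 1.74 and by 1.72 and was at -0.30 in AhR-/-. Slc39a8, a metal transporter, fell by 3.43 in WT, by 1.57 in AhR-/- and by 3.79 in CYP1B1-/-. Without AhR-/- HDM replicates 3 and 4, the AhR-/- values were -0.44 (SE 0.46) for Chpt1, -0.16 (SE 0.46) for Atp8a1 and -2.19 (SE 0.59) for Slc39a8. These genes, Nkx2-1 and Gata6 are among 13 that were named because they passed between AhR-/- and WT libraries after HDM. Of the 13, 8 fell and 2 rose after HDM in WT, 1 fell in AhR-/- and 7 fell in CYP1B1-/-, the 2 that rose in WT being Hps4 at 1.59 (SE 0.35) and Hps1 at 1.05 (SE 0.33). Because the choice used the same WT and AhR-/- HDM libraries, it favours genes whose change differs between WT and AhR-/-, and nothing is read from that difference.

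Between AhR-/- and WT at steady state none of the 9 genes passed the test. The log2 fold changes of AhR-/- over WT ran from -0.51 (SE 0.54) for Sftpa1 to 0.28 (SE 0.35) for Lpcat1, with a median of -0.37 against -0.0058 over all 15547 tested genes. That median was -1.28 without AhR-/- replicate 1, and -0.07 and -0.06 without replicates 3 and 4. No member passed edgeR's test, each with a Benjamini-Hochberg adjusted p of 0.9999, and 0% of all genes passed (13 genes by DESeq2 and 11 by limma voom). The AhR-/- libraries were uneven. Replicate 1 held 338 CPM of Slc34a2, above every WT library, and 3499.6 CPM of Sftpc, within the WT range, while replicates 3 and 4 held 70.5 and 72.3 CPM of Slc34a2 and 971 and 855 CPM of Sftpc, lower than every WT library.

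Between CYP1B1-/- and WT at steady state, 7 of the 9 genes had a lower mean in the libraries labelled CYP1B1-/- and none passed the test. The log2 fold changes ran from -1.06 (SE 0.63) for Sftpc to 0.29 (SE 0.35) for Lpcat1, with adjusted p of 0.823 to 0.926 by edgeR and a median of -0.83 against -0.05 over all genes, of which 0.0129% passed. Slc34a2, at 143, 143 and 153 CPM, and Napsa, at 18.9, 23.3 and 22.2 CPM, lay below every WT library, as 1.17% of all genes did. Replicate 2 of CYP1B1-/- held 295 CPM of Sftpc, 135 CPM of Sftpa1 and 16.7 CPM of Sftpd, the lowest of all 22 libraries for each, but its 73.9 CPM of Sftpb was the highest of its group. It stood apart from the other 9 steady state libraries in other genes too, with 287 CPM of Epcam against at most 149 CPM, 433 CPM of 8 club markers against at least 1481 CPM, 1834 CPM of 8 ciliated markers against at least 3286 CPM and 19.7 CPM of Ddx3y against at least 70.7 CPM. The part of this make-up in its surfactant values was not tested, and without this library the median of CYP1B1-/- over WT was -0.60. AhR-/- and CYP1B1-/- differed by -0.32 (SE 0.23) for Abca3 to 0.66 (SE 0.66) for Sftpc, with 0 of 9 past the threshold and 0.00643% of all genes. Their median of 0.48 was 0.19 without CYP1B1-/- replicate 2, and it turned to -0.52 without AhR-/- replicate 1, to -0.21 with the replicate number as a block and to -0.0431 with limma voom. In these 3 comparisons no member had an unadjusted p under 0.05, against 1.69%, 5.8% and 4.23% of all genes in the order given, and none passed with DESeq2 or with limma voom.

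Between AhR-/- and WT after HDM none of the 9 genes passed the test, while 22.1% of the 14161 tested genes did. The log2 fold changes were 1.65 (SE 0.98, adjusted p = 0.234) for Sftpc and 1.00 (SE 0.86, adjusted p = 0.425) for Sftpa1 by edgeR with Benjamini-Hochberg adjustment. They were -0.73 (SE 0.68, adjusted p = 0.463) for Napsa and -0.55 (SE 0.51, adjusted p = 0.459) for Abca3 by the same test. Those of Lamp3, Lpcat1, Sftpd, Sftpb and Slc34a2 lay between, at 0.56 (SE 0.75), 0.41 (SE 0.52), 0.40 (SE 0.93), 0.25 (SE 0.74) and 0.18 (SE 0.84). The median was 0.40, against -0.0017 over all genes, and no member had an unadjusted p under 0.05, as 38.8% of all genes did. Without AhR-/- HDM replicate 2 the median was -0.50.

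The AhR-/- HDM libraries fell into a high and a low pair for most of these genes. Replicates 1 and 2 held 1625 and 2697 CPM of Sftpd and 1342 and 2324 CPM of Slc34a2, whereas replicates 3 and 4 held 77.8 and 207 CPM and 87.4 and 211 CPM. For Slc34a2, 3 of the 4 WT libraries lay between the pairs, and WT replicate 1, at 1371 CPM, lay just above AhR-/- replicate 1. Without replicates 3 and 4, the log2 fold change was 2.44 for Sftpc (adjusted p = 0.220 by edgeR), that of Abca3 was 0.03 and that of Napsa 0.11, with a median of 1.07 and 0 of 9 members past the threshold. With limma voom and sample quality weights the median was -1.22 and 4 members were lower in AhR-/-, namely Slc34a2, Napsa, Sftpd and Abca3. Under limma voom 6669 of all 14161 genes passed, a share near that of the members. Under at least 1 of these 2 alternatives the sign was reversed for every member but Sftpc.

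**Figure D4:**
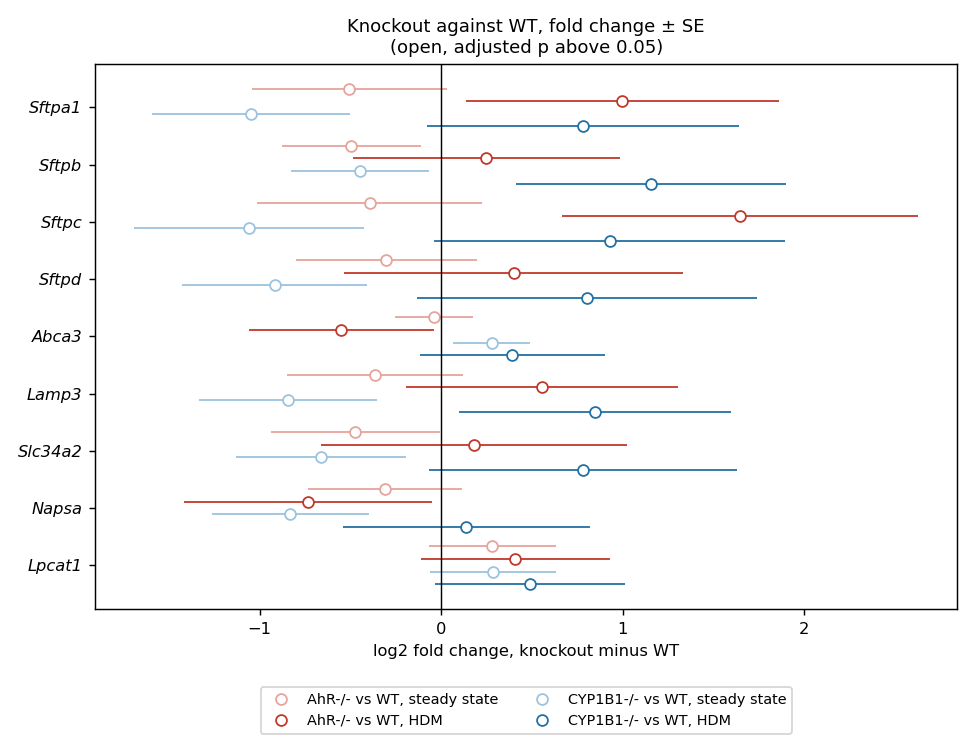
Log2 fold change of AhR-/- and of CYP1B1-/- over WT for each of the 9 genes at steady state and after HDM, with bars of 1 SE from edgeR. No point was past an adjusted p of 0.05, and the 9 values of CYP1B1-/- after HDM all lay above 0.

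CYP1B1-/- and WT did not differ past the threshold after HDM either, for any member or any other gene (0% of all genes). All 9 log2 fold changes were positive, from 0.14 (SE 0.68) for Napsa to 1.15 (SE 0.75) for Sftpb, with a median of 0.78 against -0.01 and an adjusted p of 0.9992 each by edgeR. Without CYP1B1-/- HDM replicate 2 the median was 0.265. CYP1B1-/- and WT overlapped for every member and for all but 0.607% of genes. For Sftpb the WT libraries held 306, 236, 157 and 105 CPM and the CYP1B1-/- libraries 491, 682, 148 and 297 CPM. Between AhR-/- and CYP1B1-/- the log2 fold changes ran from -0.94 (SE 0.51) for Abca3 (adjusted p = 0.239 by edgeR) to 0.72 (SE 0.96) for Sftpc, with 0 of 9 past the threshold, 0.00706% of all genes, and a median of -0.40. No member had an unadjusted p under 0.05 in either comparison, against 1.65% and 29.9% of all genes, and DESeq2 called no member (1 gene in all between CYP1B1-/- and WT, and 2906 between AhR-/- and CYP1B1-/-, where edgeR called 1). With limma voom 6 members were lower in AhR-/- than in CYP1B1-/- (median -2.38), where 4303 of 14161 genes passed. Without AhR-/- HDM replicates 3 and 4 the median was instead 0.55, with 0 members past the threshold. It was -1.30 without AhR-/- HDM replicate 2, where Abca3 was lower in AhR-/-, at -1.58 (SE 0.47, adjusted p = 0.0388 by edgeR with Benjamini-Hochberg adjustment). The median also turned positive without AhR-/- HDM replicate 3 alone, at 0.0102, and without CYP1B1-/- HDM replicate 2, at 0.0892.

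Other genes of the pathway did pass between AhR-/- and WT after HDM, where 22.1% of all genes did. Of the 12 regulators 6 were higher and 1 lower in AhR-/-, with a median log2 fold change of 1.45. Nkx2-1 was higher by 2.21 (SE 0.57, adjusted p = 0.0277), Gata6 by 2.19 (SE 0.52, adjusted p = 0.0261), Foxa1 by 2.02 (SE 0.58, adjusted p = 0.0342) and the glucocorticoid receptor gene Nr3c1 by 1.45 (SE 0.37, adjusted p = 0.0268), all by edgeR with Benjamini-Hochberg adjustment. Stat3, a cytokine signal transducer, was the regulator that was lower, at -1.05 (SE 0.32, adjusted p = 0.0367) by the same test. Of the 20 lipid and processing genes 2 were higher, Chpt1 at 1.97 (SE 0.49) and Atp8a1 at 1.21 (SE 0.40), and 4 lower, with a median of -0.30, which was 0.0812 without AhR-/- replicates 3 and 4. The lower ones were Hps4 at -2.19 (SE 0.38), Hps1 at -1.35 (SE 0.36) and Ap3b1 at -1.01 (SE 0.30), which serve the formation of lysosome-related organelles such as lamellar bodies, and Acly at -1.10 (SE 0.35), which supplies acetyl-CoA for lipid synthesis. Of the 16 further alveolar type 2 genes 2 were higher, Slc39a8 at 1.95 (SE 0.58) and Cldn18 at 1.96 (SE 0.62), a claudin also abundant in alveolar type 1 cells. The lipid and processing genes passed at a share near that of all genes and the further alveolar type 2 genes at a lower one.

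These calls, more than the fold changes, depended on single libraries. Leaving out AhR-/- HDM replicate 1, 3 or 4, or WT HDM replicate 3 or 4, left 0 genes past the threshold among all tested, while the log2 fold change over all 8 libraries left out in turn stayed at 1.99 to 2.56 for Nkx2-1, 1.91 to 2.44 for Gata6 and -2.50 to -2.04 for Hps4. Without AhR-/- replicates 3 and 4 together 0 genes passed too, and the adjusted p of the 13 named genes was 0.202 to 0.304. Their direction was the same without those 2 libraries, at 2.55 for Nkx2-1 and -1.85 for Hps4, but Slc39a8 was at 1.21, Nr3c1 at 0.92, Stat3 at -0.66 and Acly at -0.63, each smaller by more than 1.5 times. With the replicate number as a block, 1 gene in all passed, and none of the 13 did (adjusted p = 0.0581 to 0.0747 by edgeR). Beside them, 13 of 20 hematopoietic markers were lower in AhR-/- (median -2.43), and 2 of 12 alveolar type 1, 3 of 8 club and 3 of 8 ciliated markers were higher (medians 2.06, 2.02 and 1.76). The alveolar type 1 median was 1.09 without AhR-/- replicates 3 and 4. With the hematopoietic markers as a covariate none of the 13 passed (adjusted p = 0.561 to 0.676 by edgeR). The fold changes were smaller as well, at 0.56 to 1.49 for the 8 higher genes and -1.21 to -0.31 for the 5 lower ones. As these markers differ between the 2 groups themselves, that fit cannot tell their level from the genotype. Gata6 was then at 0.99, Chpt1 at 0.86 and Slc39a8 at 0.66.

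Whether HDM acted differently on the 9 genes by genotype was tested with an interaction term. For AhR-/- the difference of the log2 fold changes was largest for Sftpc, at 2.02 (SE 1.21, adjusted p = 0.379), followed by Sftpa1 at 1.49 (SE 1.06, adjusted p = 0.481) by edgeR with Benjamini-Hochberg adjustment. For CYP1B1-/- it was largest for Sftpc too, at 1.68 (SE 1.20), with an adjusted p of 0.9999 by edgeR. No member passed in either, nor did any other gene (0% of 16639), and DESeq2 called no member among its 1236 genes for AhR-/- and 0 for CYP1B1-/-. No member had an unadjusted p under 0.05, against 18.3% of all genes for AhR-/- and 2.3% for CYP1B1-/-. With limma voom 2 members had an AhR-/- interaction below 0 past the threshold, where 5042 of 16639 genes passed, and the median of the 9 was -0.86. By edgeR the median AhR-/- interaction of the 9 genes was 0.67, and 1.56 without AhR-/- HDM replicates 3 and 4, again with 0 members past the threshold. It was -0.22 without AhR-/- HDM replicate 2 and 1.48 without AhR-/- steady state replicate 1. That Sftpc and Sftpb passed in the knockouts and not in WT is therefore not shown to be a difference between genotypes.

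The balance within the list also changed with HDM. Ratios of counts are given per library without correction for length, so only their change between libraries can be read. Lamp3 over Abca3 was 0.147 to 1.09 in the 10 steady state libraries and 3.44 to 17.4 in the 12 HDM libraries, with no overlap in any genotype. Slc34a2 over Lamp3 was 2.78 to 6.81 at steady state and 1.54 to 3.03 after HDM. Sftpc over Sftpd was 17.6 to 27.7 at steady state, and after HDM 4.80 to 7.88 in WT, 4.32 to 11.2 in CYP1B1-/- and 7.04 to 77.1 in AhR-/-, the highest being replicate 3. Sftpa1 over Sftpd, the 2 collectins, was 7.18 to 9.59 at steady state, and after HDM 4.67 to 5.21 in WT, 4.30 to 6.49 in CYP1B1-/- and 4.71 to 19.5 in AhR-/-, again highest in replicate 3. Sftpc over Ager, a marker of alveolar type 1 cells, was 0.0419 to 0.253 at steady state and 0.328 to 13.4 after HDM.

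**Figure D5:**
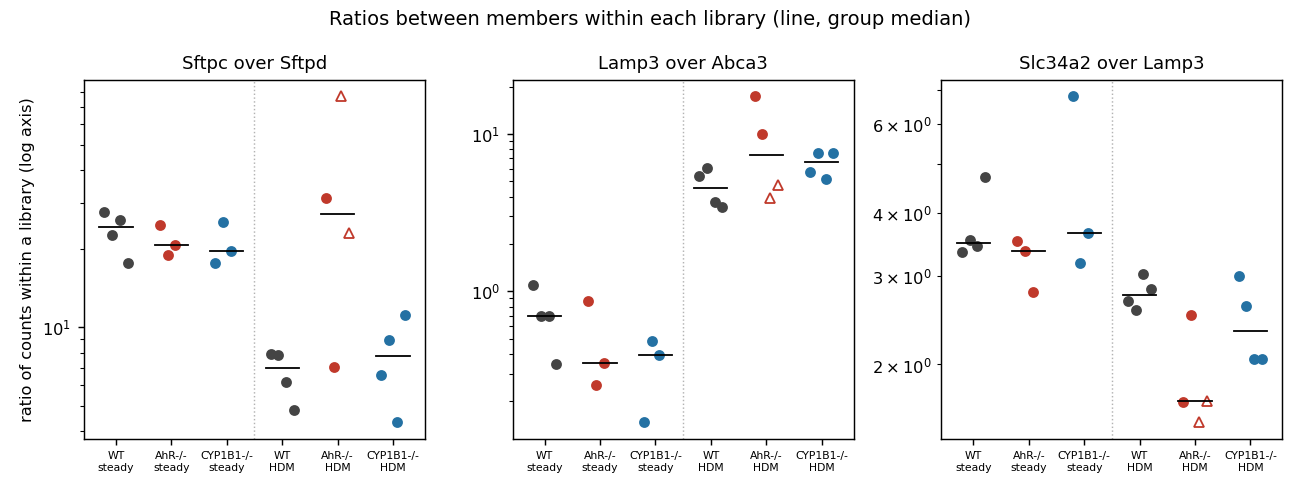
Ratios of counts for 3 pairs of the 9 genes in every library, on a log axis, by genotype and state, with a line at the group median and triangles for AhR-/- HDM replicates 3 and 4. Lamp3 over Abca3 rose from at most 1.09 at steady state to at least 3.44 after HDM, and Sftpc over Sftpd lay below 17.6 in all WT and CYP1B1-/- HDM libraries.

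The 9 genes varied together from library to library. After the mean of each of the 6 groups was taken out of log2 CPM, the 36 pairs of genes had Pearson r of 0.481 to 0.971 over the 22 libraries, with a median of 0.860, and 35 pairs were over 0.5. Against the mean of the other members, r ran from 0.801 for Abca3 to 0.979 for Lamp3. Without taking out the group means, Abca3 was at -0.07 and the other 8 genes at 0.831 to 0.987. All points share the scaling and the make-up of their library, so these r values describe the libraries.

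Among 16630 other genes, those whose within-group pattern was most like the mean of the 9 were Chil1 (r = 0.985), a chitinase-like protein, Enpep (0.983), an aminopeptidase, Cxcl15 (0.977), a lung chemokine, Lyz2 (0.971), a lysozyme of alveolar type 2 and myeloid cells, the complement gene C6 (0.971) and Mid1ip1 (0.970), a regulator of lipid synthesis. Across all 22 libraries without taking out group means they were Enpep (0.991), C6 (0.989), Cxcl15 (0.983), Slco4c1 (0.982), Egfl6 (0.980) and Itih4 (0.979). Chil1 rose after HDM in all 3 genotypes, by a log2 fold change of 3.74 (SE 0.81, adjusted p = 0.000802) in WT, 4.94 (SE 0.97, adjusted p = 0.00181) in AhR-/- and 4.90 (SE 0.97, adjusted p = 0.00042) in CYP1B1-/- by edgeR with Benjamini-Hochberg adjustment. Cxcl15 rose as well, by 2.57 (SE 0.78, adjusted p = 0.012), 3.88 (SE 0.93, adjusted p = 0.00666) and 4.01 (SE 0.94, adjusted p = 0.00202). Of the regulators, Cebpa and Etv5 had r of 0.918 and 0.915 with the mean of the 9 within groups, and Nkx2-1 had 0.380. Cebpa, Etv5 and Nkx2-1 were picked for this after their values were seen.

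The genes lie apart in the genome but for the 2 collectins. In GRCm38, Sftpa1 (ENSMUSG00000021789) spans chr14:41131782-41136452 on the plus strand and Sftpd (ENSMUSG00000021795) chr14:41172214-41185149 on the minus strand, and Sftpc (ENSMUSG00000022097) lies further along at chr14:70520949-70524081 on the minus strand. Sftpb (ENSMUSG00000056370) is at chr6:72304610-72314371, Abca3 (ENSMUSG00000024130) at chr17:24351950-24410201 and Lamp3 (ENSMUSG00000041247) at chr16:19653378-19706375, the last on the minus strand. Slc34a2 (ENSMUSG00000029188) is at chr5:53038081-53071664, Napsa (ENSMUSG00000002204) at chr7:44572380-44586862 and Lpcat1 (ENSMUSG00000021608) at chr13:73467197-73516422. The counts are over exons of each gene, whose lengths run from 1034 bases for Sftpc to 9374 bases for Abca3.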

How the data were processed

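Poly(A)-primed cDNA libraries of sorted lung ECs were sequenced by the authors, who demultiplexed the reads with bcl2fastq 2.19.1, trimmed them with bbduk, aligned them with GSNAP 2020-03-12 and counted reads per gene with featureCounts 2.0.0 on Ensembl annotation. The deposited values are raw counts per gene in 2 tables, 1 per state. The strand setting is not given in the sources used here. Of 54373 gene IDs, 54147 matched GENCODE M21 (GRCm38), which gave symbols, exon lengths and the 21793 protein-coding genes that entered the tests.

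Genotypes were compared within each state (10 and 12 libraries) and the states within each genotype in a fit of all 22 libraries, with edgeR 4.0.16 (R 4.3.3), TMM scaling, robust quasi-likelihood tests and Benjamini-Hochberg adjustment. Genes were kept by filterByExpr (minimum count 10, minimum total 15), and an adjusted p of at most 0.05 was the threshold. The SE of a log2 fold change was its size divided by the root of the F statistic. CPM and RPKM used the TMM scaling of the joint fit. Fold changes within a state used that state's own scaling. Correlations used log2 CPM with a prior count of 1. Wilson intervals (95%) cover counting error only. DESeq2 1.42.0 and limma 3.58.1 voom were alternatives. The fits were checked on simulated counts with the same spread for all genes, smaller than that of the members. That check does not cover a spread as wide as theirs.

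Groups came from the labels. Nothing states that replicates of a group came from separate sorts, so p-values measure the spread between libraries. All 9 members were named. From the lists of surfactant regulators, lipid and processing genes and further alveolar type 2 genes, up to 4 genes of lowest p per direction in AhR-/- against WT after HDM were named, together with the 6 genes most correlated with the mean of the members. The members and lists were chosen with earlier results of these data known.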

Additional observations from a re-analysis of the deposited data

Results flagged for a closer look

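Napsa in CYP1B1-/- against WT was singled out because every CYP1B1-/- library lay below the WT mean of log2 CPM at steady state and above it after HDM, the latter by a narrow margin. At steady state the CYP1B1-/- libraries held 18.9, 23.3 and 22.2 CPM against a WT mean of 36.0 CPM, and after HDM 350.1, 412, 396.5 and 395 CPM against a WT mean of 382 CPM. On the log2 scale the WT mean after HDM was 8.4502 and the lowest CYP1B1-/- library 8.4518, while in plain CPM that library lay below the WT mean. The difference between the 2 log2 fold changes was 0.77 (SE 0.90) and did not pass edgeR's interaction test (adjusted p = 0.9999, Benjamini-Hochberg). Ddx3y was at 70.7 to 80.2 CPM in WT and 19.7 to 92.0 CPM in CYP1B1-/- at steady state and at 0 CPM in both after HDM. Of 48 sets of 4 libraries examined over the 9 genes and the summed markers, 0 held a library far from the other 3 by Dixon's criterion, where chance alone gives 2.4 at 1 in 20.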

How the results depend on the processing

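Of the 131 counts of members past the threshold recomputed under an alternative other than leaving out a library, 122 stayed within 1.5 times the value reported. Under limma voom, 4 members passed in AhR-/- against WT after HDM (all lower), where 6669 of 14161 genes passed. In AhR-/- against CYP1B1-/- after HDM 6 passed (all lower), with 4303 of 14161 genes. In HDM against steady state in AhR-/- 4 passed (3 of them higher), with 4711 of 16639 genes. For the AhR-/- interaction 2 passed, with 5042 of 16639 genes. With the hematopoietic covariate, HDM against steady state gave 0 in WT, 0 in AhR-/- and 0 in CYP1B1-/-. Most markers of that covariate themselves rose with HDM, so the loss is not read as particular to the members. Fitting only the 2 groups compared gave 2 in AhR-/-. The cause of these changes was not tested. Leaving out 1 library gave 3 to 5 in WT, 2 to 7 in AhR-/- (1 of 6 a fall, of Abca3, without HDM replicate 2) and 6 to 7 in CYP1B1-/- for HDM against steady state, and 0 to 1 for AhR-/- against CYP1B1-/- after HDM, where 1 passed without AhR-/- HDM replicate 2.

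The deviations of same-numbered libraries correlated at over 0.1 in 4 of 8 pairs at steady state (r of -0.027 to 0.226, median 0.0663) and in 4 of 12 after HDM (-0.564 to 0.748, median -0.16). Pairs of different numbers did so in 4 of 25 (median -0.0525) and 18 of 36 (median 0.11). Since not every same-numbered pair was over 0.1, the libraries were taken to share only a number. With the replicate number as a block, no member passed between genotypes. In that fit each block lies within 1 state, so its contrast of HDM with steady state sets reference replicates, not group means, against each other. Its counts of 8 members in WT, 7 in AhR-/- and 7 in CYP1B1-/- are therefore not read as a result of HDM. Of 16639 genes it called 4369, 2064 and 3702. Over all genes, the number past the threshold in AhR-/- against WT after HDM was 1 under the block and 3129 without it. Signs changed under the block in AhR-/- against WT after HDM for Sftpb (-0.33), Sftpd (-0.41), Lamp3 (-0.0318) and Slc34a2 (-0.67), and at steady state for Abca3 (0.0011).

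Signs also changed under limma voom in AhR-/- against WT after HDM for Sftpa1 (-0.38), Sftpb (-1.22), Sftpd (-1.88), Lamp3 (-1.22), Slc34a2 (-2.07) and Lpcat1 (-0.51), and at steady state for Abca3 (0.0069) and, in CYP1B1-/-, Lpcat1 (-0.0434). Without the 2 AhR-/- HDM libraries with Y-linked reads, Abca3 (0.0285) and Napsa (0.11) changed sign. Leaving out 1 library at steady state, the AhR-/- log2 fold change ran from -1.08 to 0.0066 for Sftpd, from -0.25 to 0.0896 for Abca3, from -1.28 to 0.0511 for Napsa and from -0.26 to 0.54 for Lpcat1, and that of CYP1B1-/- for Lpcat1 from -0.15 to 0.51. After HDM the AhR-/- value ran from -0.66 to 0.59 for Sftpb, from -0.50 to 0.82 for Sftpd, from -0.0238 to 0.92 for Lamp3 and from -0.72 to 0.55 for Slc34a2, the lowest each without AhR-/- replicate 2. None of these passed in the edgeR fits. With all counts in place of coding counts without the dominant predicted genes, the mean share of the 9 genes in CYP1B1-/- after HDM was 1.33% and not 4.83%. Each of the 9 genes had more than 3 counts in every library, the lowest being 32 for Abca3 in AhR-/- HDM replicate 3. The part of depth in these results was not tested.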
